A study of Mus musculus with 8 samples.

Results

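The microRNA (miRNA) miR-126 was followed in both of its mature arms, miR-126-3p and miR-126-5p, in sorted CD34+/CD105- cells of the renal artery of mice. The members were chosen by assay name, mmu-miR-126-3p and mmu-miR-126-5p, and are 2 of the 750 distinct miRNA assays measured. The cells came from 8 mice. In 4 mice the surgery was a sham operation, and in the other 4 both renal arteries were clamped with microvascular clamps and blood flow was then restored (ischemia/reperfusion, I/R). In both groups the artery was digested with collagenase, the cells were sorted by flow cytometry, and miRNAs were measured by real-time PCR. The strain, age and sex of the mice, the length of ischemia and reperfusion and the number of sorted cells are not stated in the labels. CD34 marks endothelial and progenitor cells, and CD105 (endoglin) marks endothelial and mesenchymal stromal cells. Mice are numbered separately in the labels, and each is counted as 1 biological replicate. The readout is the threshold cycle (Ct), the PCR cycle at which the signal crosses a threshold, so that a lower Ct means more RNA and 1 cycle is a doubling at full PCR efficiency.

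miR-126 is the best-known miRNA of endothelial cells and lies within the gene Egfl7, which encodes a protein secreted by endothelium. A miRNA hairpin is cut into a duplex, 1 strand from its 5′ side (5p) and the other from its 3′ side (3p), and either can be loaded into Argonaute to repress messenger RNAs that match its seed. In endothelium, miR-126-3p is known to repress Spred1 and Pik3r2, inhibitors of signalling by vascular endothelial growth factor, and the adhesion molecule Vcam1. miR-126-5p is known to support endothelial proliferation through the Notch inhibitor Dlk1. Both arms are made from the same transcript, and the strand that is not loaded is usually degraded.

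The sequences are shown because the comparison below is between the arms of this hairpin. RefSeq (GRCm38.p6) lists the older name mmu-mir-126 as a synonym of Mir126a, and 1 of the 2 members, miR-126-3p, was matched there. miR-126-3p lies at chr2:26591402-26591423 on the plus strand, and its seed (bases 2 to 8) is in capitals. The hairpin lies at chr2:26591357-26591429 on the plus strand, and its capitals mark miR-126-3p.
miR-126-3p: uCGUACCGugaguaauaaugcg
mir-126a hairpin: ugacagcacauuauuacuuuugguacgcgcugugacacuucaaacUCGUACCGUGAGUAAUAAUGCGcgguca
Of 1738 mature mouse miRNAs in the RefSeq table, 1 carries this seed, miR-126-3p itself. In the fold predicted by RNAfold, 19 of the 22 bases of miR-126-3p are paired, with partners between bases 7 and 27 of the hairpin, the side that gives miR-126-5p. The hairpin starts 10274 bases after the start of Egfl7 (chr2:26581083-26592682), inside the gene. A second hairpin, mir-126b, is annotated on the opposite strand of the same place (chr2:26591363-26591420), and its 5p arm covers 19 positions of miR-126-3p.

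Both arms were read in every mouse, with a Ct in all 16 wells. The Ct of miR-126-3p in sham mice 1 to 4 was 25.0, 25.7, 24.0 and 22.2, against 27.1, 27.6, 26.6 and 27.4 in I/R mice 1 to 4. All 4 I/R values lay above all 4 sham values, so less miR-126-3p signal was present in each of these samples. The Ct of miR-126-5p in sham mice 1 to 4 was 27.7, 29.0, 26.4 and 24.9, against 27.9, 28.8, 28.6 and 27.8 in I/R mice 1 to 4. These groups overlapped, since sham mouse 2 had the highest Ct of all 8 mice and the other 3 sham mice had the lowest. On average Ct was 2.98 cycles higher after I/R for miR-126-3p (exact two-sided permutation p = 0.0286, n = 4 per group) and 1.28 cycles higher for miR-126-5p (exact permutation p = 0.257, n = 4 per group). The smallest p that 4 against 4 mice allow is 0.0286.

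**Figure D1:**
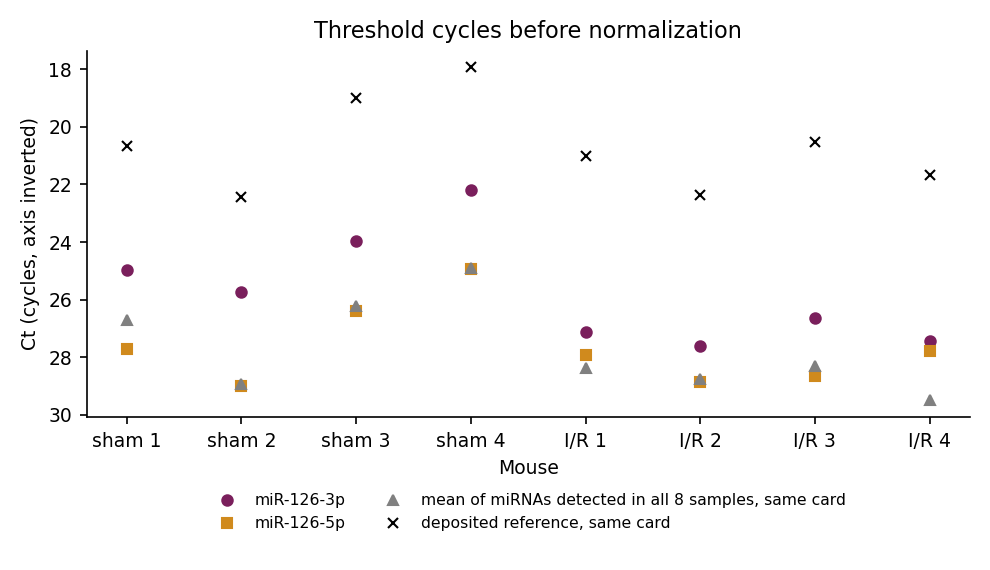
Ct (cycles, inverted axis, so that more RNA is higher) of both arms, of the mean over the 34 miRNAs of the same card detected in all 8 samples, and of the deposited reference, 1 point per mouse. miR-126-3p lies 2.42 to 3.28 cycles above miR-126-5p in the sham mice and 0.376 to 2.00 cycles above it after I/R.

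Signal over the whole card also differed between the samples. Over the 34 miRNAs of this card detected in every mouse, mean Ct ranged from 24.9 to 28.9 in sham and from 28.3 to 29.5 after I/R, and was 2.05 cycles higher on average (exact permutation p = 0.114, n = 4 per group). Between 75 and 163 miRNAs were detected below Ct 35 in sham mice and between 82 and 98 after I/R. Sham mouse 2 had the fewest and sham mouse 4 the most. The deposited tables also give delta Ct, the Ct minus 1 reference value per sample and card. Which RNA served as reference is not given in the sources used here. Its value on the card of both arms in sham mice 1 to 4 was 20.7, 22.4, 19.0 and 17.9, against 21.0, 22.4, 20.5 and 21.7 in I/R mice 1 to 4. Levels below are minus delta Ct, on a log2 scale on which higher means more RNA.

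Against that reference miR-126-3p had a lower mean after I/R, without passing the adjusted threshold. In sham mice 1 to 4 its level was -4.33, -3.28, -4.98 and -4.25, against -6.10, -5.22, -6.11 and -5.75 in I/R mice 1 to 4. The groups did not overlap, with a gap of 0.249 between the lowest sham mouse, mouse 3, and the highest I/R mouse, mouse 2. Sham mouse 2, which had the fewest detected miRNAs, had the highest level of miR-126-3p. The means were -4.21 ± 0.70 in sham and -5.79 ± 0.42 after I/R (SD, n = 4 per group). The log2 difference was -1.59 ± 0.57 (SE; 95% confidence interval -2.88 to -0.29), a mean level 0.333 times that of sham, as in the authors' deposited table, which also gives 0.333.

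miR-126-3p had an unadjusted limma p of 0.0221 and a limma adjusted p of 0.228 over the 72 miRNAs tested, and it was lower in 4 of 4 I/R mice. Over the 18 alternatives fitted with limma the adjusted p ran from 0.0850 to 0.499. Of all miRNAs tested, 0% passed limma's adjusted threshold and 13.9% had an unadjusted limma p under 0.05, all of the latter with a lower mean. The exact permutation p was 0.0286, the smallest possible, and adjusted over all tested it was 0.531. In 6.94% of the miRNAs tested the groups did not overlap. These were, beside miR-126-3p, mmu-miR-214, miR-218, miR-484 and hsa-miR-196a, named after their values were seen. Mice without a value were left out for mmu-miR-214 (3 sham and 4 I/R mice read), miR-484 and hsa-miR-196a (3 and 3 each). Only miR-126-3p and miR-218 had separate groups with every mouse read. In sorted cells measured in bulk, fewer cells with a miRNA and less of it per cell cannot be told apart.

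miR-126-5p showed no such separation. In sham mice 1 to 4 its level was -7.07, -6.56, -7.40 and -7.00, against -6.89, -6.47, -8.11 and -6.12 in I/R mice 1 to 4. The I/R mice lay on both sides of the sham mice, with mouse 4 highest and mouse 3 lowest of all 8. The means were -7.01 ± 0.34 in sham and -6.90 ± 0.87 after I/R (SD, n = 4 per group). They differed by 0.11 ± 0.60 (SE) on the log2 scale, at an unadjusted p of 0.862 and an adjusted p of 0.892 by limma. Its 95% confidence interval, -1.26 to 1.48, spans levels from 0.417 to 2.78 times those of sham. A change within that range, in either direction, is therefore not excluded by these mice. In the authors' deposited table the fold is 1.08.

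**Figure D2:**
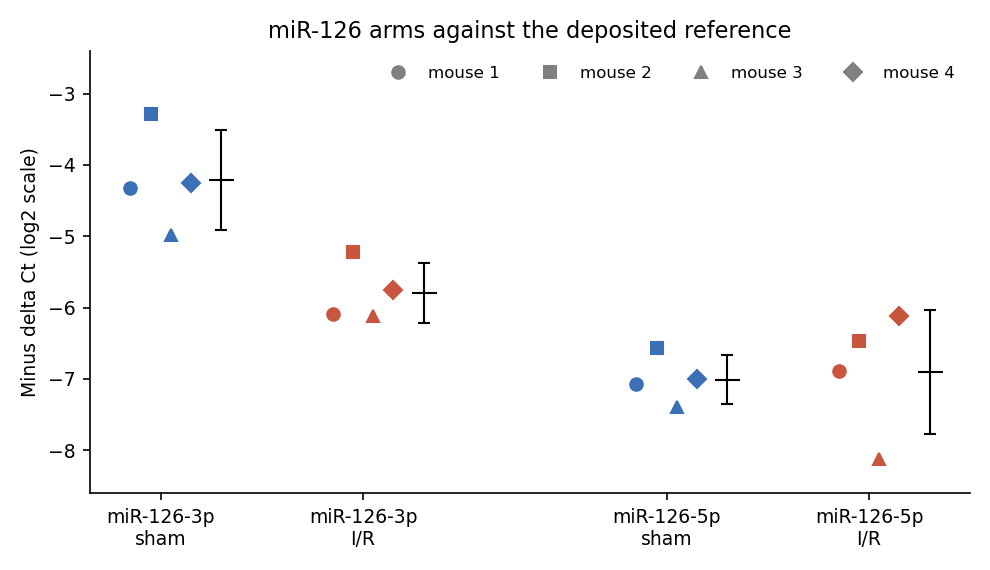
Minus delta Ct (log2 scale, higher means more RNA) of each arm in sham and I/R mice, 1 symbol per mouse number, with mean and SD in black (n = 4 per group). The miR-126-3p groups are separate, from -4.98 upwards in sham and from -5.22 downwards in I/R, while the miR-126-5p groups overlap.

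The arms were then compared within each sample. Both assays are on the same card, so the reference cancels and the difference between the arms is the same with or without normalization. Ct of miR-126-5p minus Ct of miR-126-3p came to 2.74, 3.28, 2.42 and 2.75 cycles in sham mice 1 to 4. It was 0.799, 1.25, 2.00 and 0.376 cycles in I/R mice 1 to 4. The miR-126-3p signal was stronger in all 8 mice, and the difference was smaller in each I/R mouse than in any sham mouse. As a signal ratio of 3p over 5p this was between 5.36 and 9.71 in sham and between 1.30 and 4.01 after I/R. The ratio assumes full and equal PCR efficiency and is no ratio of molecules. Its change between groups is not affected by a constant offset between the assays, but it still assumes that efficiency.

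The mean difference was 2.80 ± 0.35 cycles in sham and 1.11 ± 0.70 cycles after I/R (SD, n = 4 per group). It was smaller by 1.69 cycles after I/R, a 3.23-fold lower ratio, with an exact two-sided permutation p of 0.0286 (n = 4 per group). That test compares the change of the 2 arms directly, and the p is the smallest these 8 mice allow. The arms were picked with their group means known, so it is no independent evidence. I/R mouse 3 lay nearest to the sham mice, and without it the shift was -1.99 cycles. Without any 1 sham mouse the exact permutation p was 0.0571.

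Shifts of this size were common between miRNAs of this card. Over the 561 pairs of the 34 miRNAs detected in all 8 samples, 26.9% had a larger absolute shift than the 1.69 cycles of the miR-126 arms, and the median was 1.04 cycles. Groups that did not overlap were rarer, at 5.7% of the pairs. With miR-126-3p as one of the pair the share was 15.2% (5 of 33), namely miR-126-5p, miR-106b, miR-155, miR-188-5p and miR-25, named after their values were seen. With miR-126-5p it was 9.09% (3 of 33), namely miR-126-3p, miR-218 and miR-222. These pairs share assays and mice and are given as a description.

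**Figure D3:**
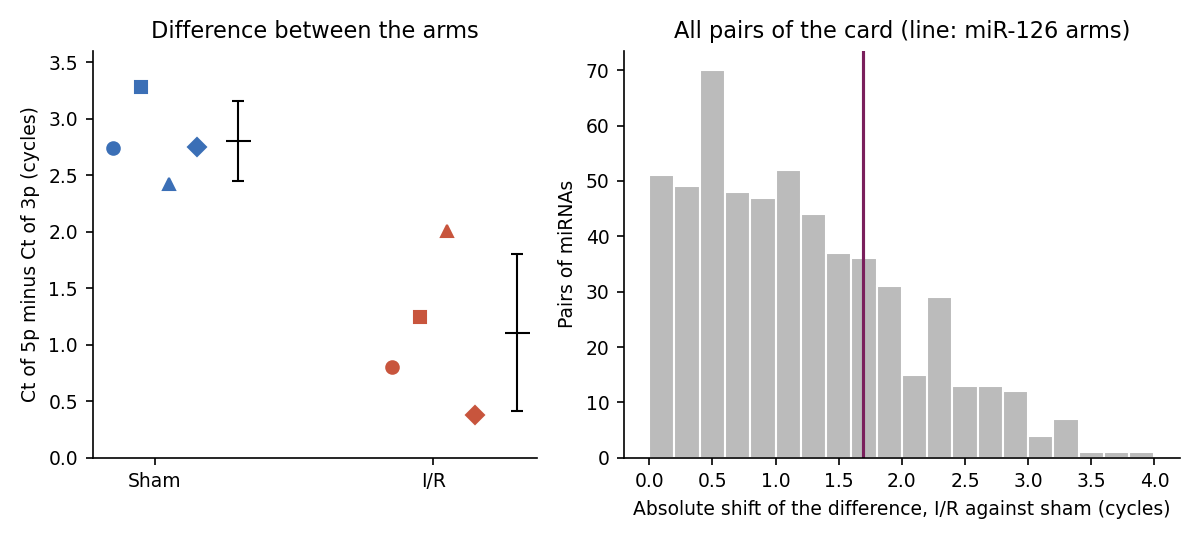
Left, Ct of miR-126-5p minus Ct of miR-126-3p (cycles) per mouse, with mean and SD in black (n = 4 per group; symbols by mouse number as circle, square, triangle and diamond for 1 to 4). Right, the absolute shift of such differences between groups (cycles) for all 561 pairs of 34 miRNAs, with the miR-126 arms at 1.69 (line), inside the bulk of the distribution.

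Among sham mice the arms stayed close to each other. Their difference had an SD of 0.355 cycles over the 4 sham mice, beside a median of 1.37 over all 561 pairs, and 97.1% of pairs varied more. Of the 33 pairs with miR-126-3p 87.9% varied more in sham, and of the 33 with miR-126-5p 93.9%. After I/R the SD was 0.696 cycles, beside a median of 1.16, and 81.1% of pairs varied more. Of the pairs with miR-126-3p it was 57.6% after I/R (median 0.706), and of those with miR-126-5p 75.8% (median 1.09). After I/R the arms were thus about as close as miR-126-3p was to the median miRNA of the card. Over all 8 mice, where the shift between groups counts too, the SD was 1.04 cycles, beside a median of 1.49.

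No other hairpin could be compared by the same rule. Of 113 pairs of arms with an assay each under 1 species prefix, both arms were detected in any sample for 10, and in at least 3 mice of each group for 1, miR-126. Arms of miR-30a, which carry different species prefixes and sit on different cards, were added after their values were seen. miR-30a minus miR-30a-3p was -0.05 ± 1.52 in sham and 0.58 ± 1.70 after I/R (SD of the log2 difference, n = 4 per group; exact permutation p = 0.60), with overlapping groups.

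The place of each arm among the tested miRNAs depends on the whole distribution. Over the 72 miRNAs the log2 differences had a median of -0.80, and 68.1% had a lower mean after I/R (56.9% against the common set of miRNAs described below and 90.3% without normalization). miR-126-3p lay 0.79 below that median, at rank 20 from the lowest difference and rank 7 by p. miR-126-5p lay 0.91 above it, at rank 50 from the lowest. By Ct on the card, where 1 is the lowest Ct of the 34 miRNAs present in every mouse, miR-126-3p ranked between 4 and 9 in sham mice and between 9 and 12 after I/R. miR-126-5p ranked between 19 and 24 in sham and between 13 and 21 after I/R. Such ranks also hold the efficiency of each assay.

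**Figure D4:**
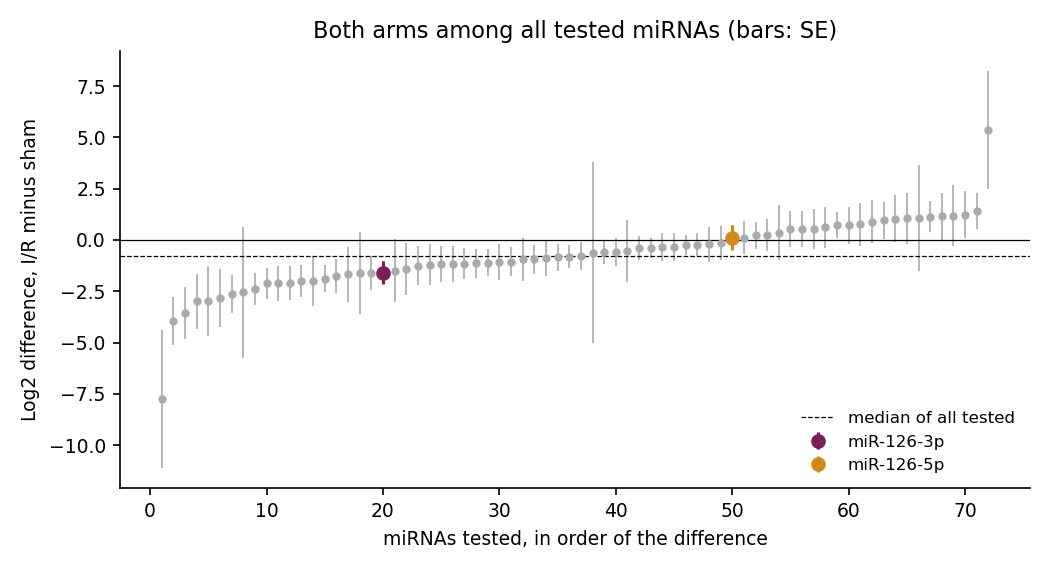
Log2 difference (I/R minus sham) of the 72 miRNAs tested, in ascending order, with SE bars. miR-126-3p (-1.59) lies below and miR-126-5p (0.11) above the median of -0.80 (dashed).

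The choice of reference moved both arms together. Without normalization the log2 difference was -2.98 for miR-126-3p and -1.28 for miR-126-5p, beside a median of -1.93 for all tested. With the mean of miRNAs present in all 8 mice, card by card, as reference (the common set), it was -0.93 ± 0.53 for miR-126-3p and 0.77 ± 0.60 for miR-126-5p (SE), beside a median of -0.31. On that scale the miR-126-3p groups overlapped (exact permutation p = 0.0571, n = 4 per group). Against the mean of 3 control assays (snoRNA135, snoRNA202 and Y1) it was -1.65 ± 0.88 and 0.04 ± 0.89 (SE), beside a median of -0.61. The miR-126-3p groups overlapped there too (exact permutation p = 0.0857, n = 4 per group). Y1 varied widely among sham mice (SD 3.72 cycles), with a Ct of 35.9 in sham mouse 2, above the detection limit of 35. On this scale sham mouse 3 (2.81) lay below I/R mice 2 (2.95) and 4 (2.85), and sham mouse 2 lay highest (5.60). The part of Y1 in this overlap was not tested. On each of these 4 scales miR-126-3p was below the median and miR-126-5p above it. These scales are not independent checks, since each reference moves all miRNAs of a card alike. Control assays gave 1 value per sample for both cards. Positions against the median were thus equal to those without normalization (-1.04 for miR-126-3p and 0.65 for miR-126-5p).

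Likeness between miRNAs was measured as the SD, over the 8 mice, of the difference between their levels, smaller meaning more alike, among the 53 other miRNAs detected in all samples. miR-126-3p was most like miR-218, which is encoded within the Slit genes (SD 0.52), followed by miR-26a (0.53), miR-24 (0.56), miR-92a, an inhibitor of angiogenesis (0.73), and let-7c (0.83). All 5 had lower means after I/R against the deposited reference, between -1.89 for miR-218 and -0.59 for let-7c, beside 68.1% of all tested. Against the common set let-7c was at 0.066. The SD counts the shift between groups, so miRNAs with a shift near that of miR-126-3p rank as more alike. Their shared direction is thus partly set by the measure. miR-126-5p was most like miR-2182 (0.53), the inflammatory miRNA miR-155 (0.60), miR-24 (0.66), miR-2134 (0.68) and miR-34c# (0.69). Of these miR-2182, miR-2134 and miR-34c# are on the other card, so the reference does not cancel and their SD also holds the difference between the card references. The 5 nearest to miR-126-3p are all on its own card. The partner arm ranked 13 for miR-126-3p and 14 for miR-126-5p, at an SD of 1.04. Only miR-24 stood among the first 5 of both arms. All values share the mice and, within a card, the reference.

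Other miRNAs of endothelial and angiogenic function were taken from a list of 33. Of these 25 were detected in at least 1 sample and 11 were tested, and 0 of the 11 passed the adjusted limma threshold, as for all miRNAs tested (0%). Lower means were found for 10 of 11, with a median log2 difference of -0.93, beside 68.1% and -0.80 for all tested. Against the common set the count was 7 of 11, with a median of -0.28, beside 56.9% and -0.31 for all tested, and let-7b (0.32), miR-19b (0.25) and miR-31 (0.52) were then above 0. Without normalization it was 11 of 11, beside 90.3% for all tested. At an unadjusted limma p under 0.05 there were 2 of 11, or 18.2%, near the 13.9% of all tested, and 0 of 11 against the common set. The 2 were miR-222 (-2.12 ± 0.74), which represses the receptor gene Kit, and miR-218 (-1.89 ± 0.66; SE, n = 4 per group). miR-218 was between -5.30 and -4.07 in sham mice and between -8.05 and -5.96 after I/R, and its groups did not overlap. miR-222 was between -7.51 and -5.07 in sham and between -9.37 and -7.42 after I/R, with overlap. The member with a higher mean was miR-181a (0.53 ± 0.95, SE), which was lower without normalization, at -0.53. miR-221, the neighbour of miR-222, had a Ct below 35 in 3 of 4 sham mice and in 0 of 4 I/R mice and was not tested.

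Markers of other cell types were read beside these values. The gate on CD34 would leave out smooth muscle, tubule and most blood cells. The gate against CD105 would leave out cells with that marker, endothelial as well as mesenchymal stromal. The endothelial share of the sorted cells is therefore not known. The purity of the sorted cells is not given in the sources used here. Summed levels below are log2 of the sum of the listed miRNAs, on the minus delta Ct scale. Of the fibroblast and mesenchymal markers 2 of 3 were detected, with miR-199a-5p in no sample. Their summed level was -7.75 to -4.08 in sham and -6.74 to -5.45 after I/R. The 3 assays tested had lower means, miR-199a-3p at -2.65 ± 0.92 (SE) and miR-214 in both of its assays. The assay mmu-miR-214 was at -3.95 ± 1.17 (SE; detected in 3 sham and 4 I/R mice), with the lowest limma p of all 72 (0.0100 unadjusted, 0.228 adjusted) and groups that did not overlap. That separation holds only for the mice read, since sham mouse 2 had no value for this assay. With values not detected set to Ct 35 the difference of mmu-miR-214 was smaller, at -2.54 ± 1.57 (SE). The assay hsa-miR-214 was at -0.86 ± 0.87 (SE; limma adjusted p = 0.605), with overlap, so the assays of this miRNA differed widely. Of the smooth muscle markers 2 of 2 were detected, with a summed level of -11.66 to -8.38 in sham and -11.94 to -10.51 after I/R. miR-145 was at -2.09 ± 0.84 (SE). These 4 assays lay in the same direction as miR-126-3p on each of the 4 reference scales. Of all miRNAs tested 68.1% were lower against the deposited reference and 56.9% against the common set. The share was 90.3% without normalization and 66.7% against control assays. The part of these 4 assays in the difference of miR-126-3p was not tested.

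Of the leukocyte and platelet markers 5 of 6 were detected, with miR-142-5p in no sample. Their summed level was -7.07 to -4.75 in sham and -7.41 to -3.81 after I/R. miR-223, abundant in myeloid cells and platelets, was read by 2 assays. mmu-miR-223 was at 0.63 ± 1.00 (SE) and turned to -0.76 without normalization, while hsa-miR-223 was at 1.15 ± 1.13 (SE) and at 0.13 without normalization. miR-150 of lymphocytes was at -1.62 ± 2.00 (SE). It too was lower on each of the 4 reference scales, between -3.01 without normalization and -0.96 against the common set. Of the epithelial and tubule markers 4 of 10 were detected, in 3 sham mice (summed level -6.04 to -1.46) and in 2 I/R mice (-9.02 to -3.44). The 4 were miR-203 and miR-204, each in 3 sham and 2 I/R mice, miR-194 in 2 sham mice and miR-192 in 1 sham mouse. Their highest summed level, in a sham mouse, lay above the highest level of miR-126-3p (-3.28). miR-141, miR-200a, miR-200b, miR-200c, miR-205 and miR-429 were detected in no sample. Of the striated muscle markers 2 of 3 were detected, miR-206 in 4 sham and 2 I/R mice and miR-133a in 1 sham mouse. Of the erythroid markers miR-451, miR-144 and miR-486, 0 of 3 were detected.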

How the data were processed

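RNA came from a mirVana kit and was read by real-time PCR on a 7900HT Fast instrument, per the labels' protocols. The authors deposited Ct values in cycles, delta Ct values on a log2 scale and a fold change, a ratio defined per the file headers as 2 to the power of the mean sham minus the mean experimental delta Ct. Not given in the sources used here are which software, reference RNA and type of card were used. Catalogue numbers fall into 2 series, taken as 2 cards with 375 miRNA assays each, and both arms are on the first. Deposited delta Ct equalled Ct minus 1 value per sample and card within 7.11e-15 cycles. In 13 wells, none of them of miR-126, the deposited table held a delta Ct without a Ct, and these were left out.

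Levels are minus delta Ct. Detection meant a Ct below 35, and testing required detection in 3 or more mice per group (72 of 750). Values not detected were missing and repeated wells were averaged. limma 3.58.1 (lmFit, eBayes) in R 4.3.3 was run over all 72, two-sided, with Benjamini-Hochberg adjustment at 0.05, and was tested on simulated data. Single values were compared by exact permutation over 70 assignments. RNAfold was version 2.7.2. Named miRNAs are both arms, the 5 most like each, testable arm pairs and members of the lists. Alternatives were other references, detection limits, filters, moderation, a block by mouse number and leaving out each mouse. The members and lists were chosen with earlier results of these data known. The files give no number of wells per value, and the error is that between mice.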

Additional observations from a re-analysis of the deposited data

How the results depend on the processing

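miR-126-3p kept its direction and its side of the adjusted threshold under all 19 alternatives, 18 fitted with limma and 1 an exact permutation test (adjusted p = 0.531), between -2.98 (no normalization) and -0.93 (the common set as reference). Other detection limits, filters and moderation, the block and the permutation test could not move its difference (-1.59), as every mouse had a value. Only other references and leaving out a mouse could. Leaving out 1 mouse at a time gave -1.84 to -1.28. miR-126-5p turned to -1.28 without normalization and lay between -0.15 and 0.51 with 1 mouse left out, below 0 without sham mouse 3 (-0.02), I/R mouse 2 (-0.04) or I/R mouse 4 (-0.15). Leaving out 1 mouse moved the arm difference between -1.99 and -1.45, with an exact permutation p of 0.0286 to 0.0571. With mouse number as a replicate block it was -1.69 with p = 0.125, the smallest an exact permutation within 4 pairs allows. Nothing in the labels pairs the mice, and the correlation of same-numbered mice's deviations over 54 miRNAs was -0.38, -0.15, 0.02 and -0.25. No mouse correlated best with its own number. The block gave miR-126-3p an adjusted limma p of 0.312 and changed no other call. With miR-126-5p as the reference of every miRNA of the card, chosen after seeing the data, limma gave the arm difference an unadjusted p of 0.0142 and an adjusted p of 0.152.

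The count of miRNAs past the adjusted limma threshold was 0, and 1 with any Ct counted as detected or with values not detected set to Ct 35, and lay between 0 and 1 with 1 mouse left out. The count at an unadjusted p under 0.05 was 10, against 3 with the common set, 6 with control assays, 21 without normalization, 4 at Ct 32 and 21 at Ct 35 for values not detected, and lay between 5 and 13 with 1 mouse left out. Among other miRNAs named, let-7c turned to 0.066, let-7b to 0.32, miR-19b to 0.25 and miR-31 to 0.52 with the common set, and miR-2182 to 0.053 with control assays as reference. Without normalization miR-155 turned to -1.16, the assay mmu-miR-223 to -0.76 (hsa-miR-223 stayed at 0.13), miR-34c# to -0.30 and miR-181a to -0.53. Leaving out 1 mouse put miR-155 between -0.074 (sham mouse 1) and 0.62 and miR-181a between -0.11 (sham mouse 1) and 1.10, and with any Ct counted miR-181a was at -0.0027. miR-31 lay between -0.83 (without sham mouse 4) and 0.36 (without sham mouse 1), and above 0 also without sham mouse 2, I/R mouse 1 or I/R mouse 3. limma on the differences of all arm pairs was not run, since 1 pair could be tested.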
